A study of Mus musculus with 27 samples.

Results

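The *Nkx3-2* region of mouse chromosome 5 was examined for contacts 2 to 10 Mb away, well outside the topological domain that holds the gene and its enhancers. The members were the *BglII* restriction fragments of chromosome 5 with a midpoint at chr5:31050000-39049999, the centromeric side, or at chr5:43844316-51844315, the telomeric side (mm10). They numbered 5560 of the 949826 fragments of the genome, with 2857 on the centromeric and 2703 on the telomeric side, and they were set beside the 44552 fragments of chromosome 5 beyond 10 Mb and the 796406 fragments of the other autosomes. Each side is 8 Mb wide and was divided into 16 bins of 500 kb.

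Contacts were measured by 4C-Seq in forelimb buds, hindlimb buds and liver of mouse embryos at E14.5. The strain is C57BL/6Ncrl in the labels and C57BL/6NJ in the methods. Each tissue had 3 replicates, each from 5 to 6 pooled embryos, and primers at 3 viewpoints, N1, N2 and N3, amplified the chromatin of each replicate, which gave 27 libraries from 9 templates. N1, N2 and N3 are candidate limb enhancers at the *Nkx3-2* locus, and the N2 primer lies a short way downstream of the enhancer itself. Libraries of the same tissue and number share a template, so they are not independent across viewpoints. A library sums over all cells of its pool, so contact in more of the cells and more frequent contact per cell cannot be told apart. No expression was measured, so the tissues could not be checked against marker genes. The label of hindlimb replicate 3 carries a second replicate number, and the N3 liver labels name another enhancer. The titles were followed for both.

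In 4C-Seq, crosslinked chromatin is cut, ligated to what lies near it in the nucleus, and the partners of a chosen position are amplified and sequenced. Contacts fall steeply with distance along the chromosome. Beyond the domain of a gene they are mostly rare, and which of them recur is a question for replicate libraries. *Nkx3-2* encodes a homeodomain repressor that delays cartilage maturation in the growing skeleton, and its enhancers lie in the same domain.

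The viewpoints are shown first because every read starts from them. Each sequence runs 5′ to 3′ on the + strand of mm10 from the start of the nested primer through the *BglII* site, which is in capitals. They lie at chr5:41165733-41165760 (N1), chr5:41403985-41404017 (N2) and chr5:41535790-41535815 (N3), and the start of *Nkx3-2* at position 41764501 (GENCODE vM21) lies 229 kb from the N3 primer and 599 kb from the N1 primer.
N1: cttgagtttgccacccaaacctAGATCT
N2: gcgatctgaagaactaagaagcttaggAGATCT
N3: gttgtaagtagcagacacagAGATCT
From these primers the nearest members lay 2.12 Mb (N1) and 2.49 Mb (N3) away on the centromeric side, and 2.68 Mb (N1) and 2.31 Mb (N3) away on the telomeric side. The centromeric side is the more gene-rich, with 112 protein-coding gene starts and a GC content of 46.5%, against 18 starts and 39.1% on the telomeric side. Their fragments were alike in length, with medians of 1923 and 1958 bp.

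Depth differed by viewpoint. The N1 libraries held 2984 to 20134 reads on 390 to 3516 fragments, the N2 libraries 165471 to 570405 reads on 2973 to 13047 fragments, and the N3 libraries 924023 to 2376866 reads on 14632 to 35979 fragments. A count of 0 on a region allows up to 3 reads, which is 0.0149 to 0.101% of an N1 library, 0.000526 to 0.00181% of an N2 library and 0.000126 to 0.000325% of an N3 library. PCR copies of a molecule are counted as reads of their own, so this limit covers counting error only. The 3 libraries of liver replicate 3 stood apart: they had reads on 253 (N1), 554 (N2) and 677 (N3) members, where no other library exceeded 50, 190 and 241. Results are therefore also given without them.

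The members were sparsely but more densely covered than the rest of the genome. Of the 5560 members, 1969 (35.4%) had reads in at least 1 of the 27 libraries, against 15.1% of all fragments of the genome. The other 3591 had none. Most of those with reads, 1133, were seen in a single library, and 46 were seen from all 3 viewpoints. The matching shares over all fragments of the genome are not given here, so these counts only describe the members. No member was seen in more than 11 of the 27 libraries.

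From N1, the percentage of members with reads was lowest at 0.180, with a median of 0.450 and a highest value of 4.55 over 9 libraries. From N2 it ran from 0.629 to 9.96 (median 1.08), and from N3 from 2.25 to 12.2 (median 2.99). The highest value of each viewpoint was liver replicate 3, without which the means were 0.447, 1.38 and 2.94%. Against chromosome 5 beyond 10 Mb, members were covered 2.66-fold more often from N1 (mean log2 ratio 1.41 ± 0.58, SD, n = 9), 1.87-fold more often from N2 (0.90 ± 0.33) and 1.37-fold more often from N3 (0.45 ± 0.26). Each excess was seen in 9 of 9 libraries and was larger than their spread (p = 0.00391 in an exact two-sided permutation test by sign flips, the lowest 9 libraries can reach, and the same after adjustment over 6 comparisons). Against the other autosomes the mean log2 ratios were 2.02, 1.26 and 0.66, with the same exact p. Without liver replicate 3 the ratios against chromosome 5 beyond 10 Mb were 1.32, 0.81 and 0.37, in 8 of 8 libraries (exact p = 0.00781).

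**Figure D1:**
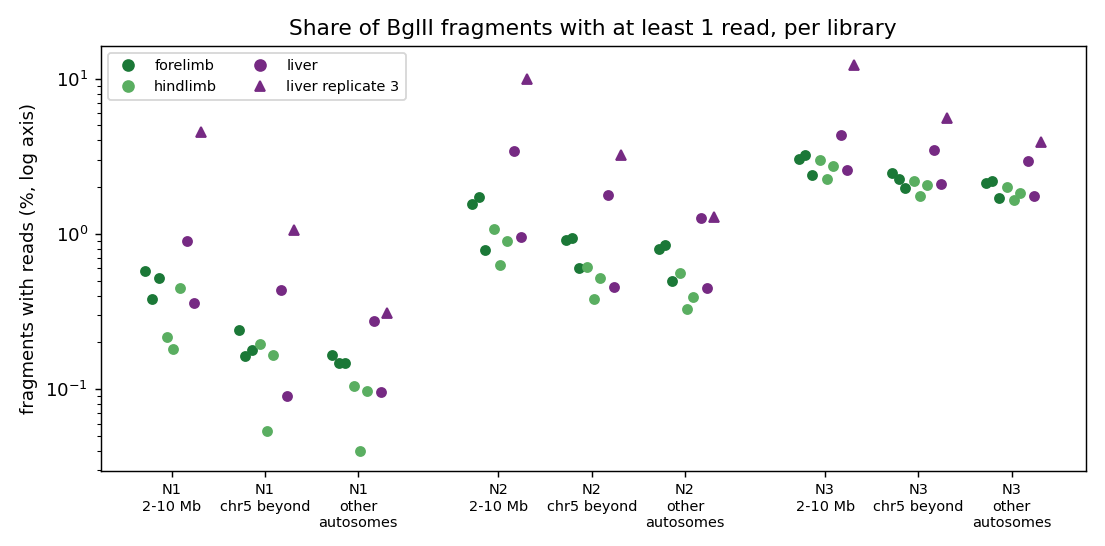
Percentage of *BglII* fragments with at least 1 read in each library (log axis), for the members at 2 to 10 Mb, chromosome 5 beyond 10 Mb and the other autosomes, by viewpoint. Points are single libraries coloured by tissue and the triangle is liver replicate 3; in each of the 9 libraries of each viewpoint the members lie above both other sets, and liver replicate 3 reaches 4.55% (N1), 9.96% (N2) and 12.2% (N3) of members.

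How much of a library the members took up depended on the viewpoint. From N1 they held 62 to 912 reads, which was 1.24 to 6.53% of the library. From N2 they held 239 to 3116 reads (0.0965 to 1.35%), and from N3 6668 to 21179 reads (0.722 to 1.14%). Paired within the 9 templates, the log2 share of library reads was higher from N1 than from N2 by 3.05 ± 0.85 (SD) and than from N3 by 1.08 ± 0.97, in 9 of 9 templates each (exact sign-flip permutation test, adjusted p = 0.00469 over 6 tests). The share from N2 was below that from N3 by a log2 difference of -1.98 ± 1.13 (adjusted p = 0.00781, exact), in 8 of 9 templates. The last direction rested on a few fragments. Without the fragments with reads in all 9 libraries of a viewpoint, the N2 share was the higher by 0.85 (adjusted p = 0.00938, exact). The first pair of differences kept their direction but also lost a call each, N1 against N2 over neighbouring fragments of equal count (0.58, exact adjusted p = 0.0703) and N1 against N3 as a share of chromosome 5 beyond 2 Mb (0.31, exact adjusted p = 0.199).

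Counted as fragments the order was plain. Members made up more of the fragments with reads from N1 than from N2 (log2 difference 0.68 ± 0.40, SD) and N3 (1.24 ± 0.46), and more from N2 than from N3 (0.56 ± 0.29), in 9 of 9 templates each (exact adjusted p = 0.00469). This order is the reverse of that of depth, which was lowest from N1 and highest from N3. The libraries were not brought to equal depth for these values.

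The 2 sides were compared within each library, since both are 8 Mb wide and were read from the same template. From N3 the centromeric side had far more reads, with 5992 to 18223 per library against 676 to 3592 on the telomeric side, and the groups did not overlap. The mean log2 ratio of telomeric to centromeric reads was -3.19 ± 0.51 (SD, n = 9), a 9.10-fold difference with 0 of 9 libraries above 0 (exact sign-flip permutation test, p = 0.00391, adjusted p = 0.00781 over 6 tests). From N2 the centromeric side had 179 to 1826 reads and the telomeric side 51 to 1290. The mean log2 ratio was -1.88 ± 0.71, a 3.68-fold difference, again with 0 of 9 libraries above 0 (exact adjusted p = 0.00781). From N1 there were 24 to 552 and 38 to 360 reads, and the log2 ratio of -0.27 ± 1.19 was within the spread between libraries (exact p = 0.5, adjusted p = 0.6), with 3 of 9 libraries above 0.

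Fragments with reads differed far less between the sides than reads did. From N3 a mean of 4.37% of centromeric and 3.55% of telomeric fragments had reads, a log2 ratio of -0.41 ± 0.38 (SD, n = 9; exact adjusted p = 0.00781). From N2 the means were 2.54 and 2.12% and the log2 ratio -0.58 ± 0.47 (exact adjusted p = 0.0176), below 0 in 8 of 9 libraries. Leaving out liver replicate 3, the means were 1.64 and 1.11% from N2 and 3.37 and 2.49% from N3. From N1 the log2 ratio was 0.15 ± 0.88 (exact adjusted p = 0.613). The side balance differed between viewpoints within templates: the log2 read ratio from N1 exceeded that from N3 by 2.92 ± 1.25 (SD, 9 of 9 templates, exact adjusted p = 0.0117 over 6 tests, chosen after seeing the data). That difference did not pass over neighbouring fragments of equal count, explained in the next paragraph (0.77, exact adjusted p = 0.469), or without the fragments with reads in all 9 libraries (0.74, exact adjusted p = 0.180). GC content and gene number also differ between the sides, as given above, and their part in the difference was not tested.

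The read ratio from N3 depended on which fragments were counted. Without the fragments with reads in all 9 libraries it was -1.01 (exact adjusted p = 0.0234), with 8 of 9 libraries below 0. Some neighbouring fragments held the same count in a library. A read counted on both sides of a *BglII* site would add the same count to both fragments, but whether reads were counted so was not tested. Over only neighbouring fragments of equal count, the log2 ratio of reads was -1.26 from N2 and -1.01 from N3. Neither passed the threshold (exact adjusted p = 0.0547). The fragment ratio over such neighbours was -0.33 from N3 (exact adjusted p = 0.217).

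**Figure D2:**
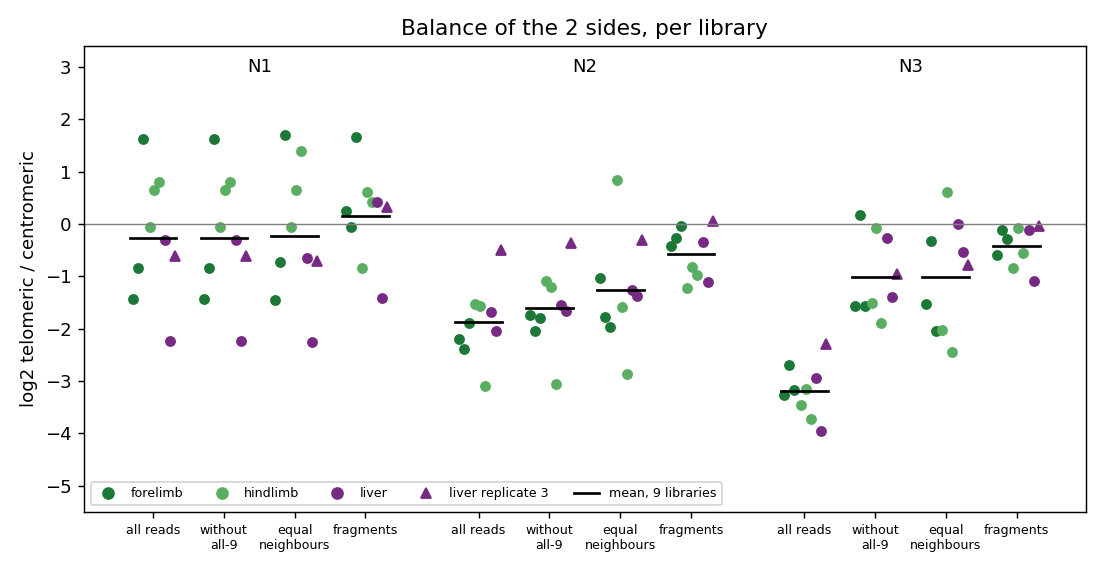
Log2 ratio of telomeric to centromeric values in each library for N1, N2 and N3, from all reads, from reads without the fragments seen in all 9 libraries, from neighbouring fragments of equal count, and from fragments with reads. Points are libraries coloured by tissue, the triangle is liver replicate 3, black lines are means of 9 libraries and 0 marks equal sides; for N3 the mean moves from -3.19 with all reads to -1.01 without the fragments in all 9 libraries.

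Coverage fell with distance on the centromeric side. In the nearest 2 Mb a mean of 1.64% (N1), 4.21% (N2) and 6.60% (N3) of fragments had reads, against 0.440, 1.83 and 2.77% in the farthest 2 Mb. In the libraries other than liver replicate 3 these were 0.846, 2.56 and 5.02% near and 0.247, 1.25 and 2.30% far. The log2 ratio of nearest to farthest was 1.91 ± 1.14 (SD) from N1, 1.02 ± 0.52 from N2 and 1.18 ± 0.40 from N3, above 0 in 9 of 9 libraries each (exact sign-flip permutation test, adjusted p = 0.00781 over 6 tests, chosen after seeing the data). On the telomeric side the fall was seen from N1, where 1.41 and 0.857% had reads (log2 1.43 ± 1.13, 8 of 9 libraries, exact adjusted p = 0.0176), or 0.858 and 0.340% without liver replicate 3. It did not exceed the spread from N2 (0.05, 5 of 9 libraries, exact adjusted p = 0.797) or from N3 (-0.26, 4 of 9, exact adjusted p = 0.169).

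The difference between the sides in this fall was tested itself. The centromeric minus the telomeric log2 ratio was 0.98 ± 0.76 (SD) from N2 and 1.44 ± 0.57 from N3, above 0 in 9 of 9 libraries each (exact adjusted p = 0.00586 over 3 tests). From N1 it was 0.48 ± 1.95, in 5 of 9 libraries (exact p = 0.527). Without liver replicate 3 the differences from N2 and N3 were 0.99 and 1.43 (exact adjusted p = 0.0117).

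The bins were then asked for recurrence, meaning reads in at least 6 of the 9 libraries of a viewpoint. From N1, 5 of the 32 member bins were recurrent (15.6%), against 2.34% of the 256 bins of chromosome 5 beyond 10 Mb and 0.82% of the 4512 bins of the other autosomes. From N2, 22 were (68.8%, against 47.7 and 40.4%). From N3 all 32 were, where 94.9 and 96.1% of the other bins were as well, so that recurrence from N3 does not set the members apart. The same 5 bins, all of those recurrent from N1, were recurrent from all 3 viewpoints (15.6%, against 1.56 and 0.465%). These shares are a description, since the libraries of a template are not independent.

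**Figure D3:**
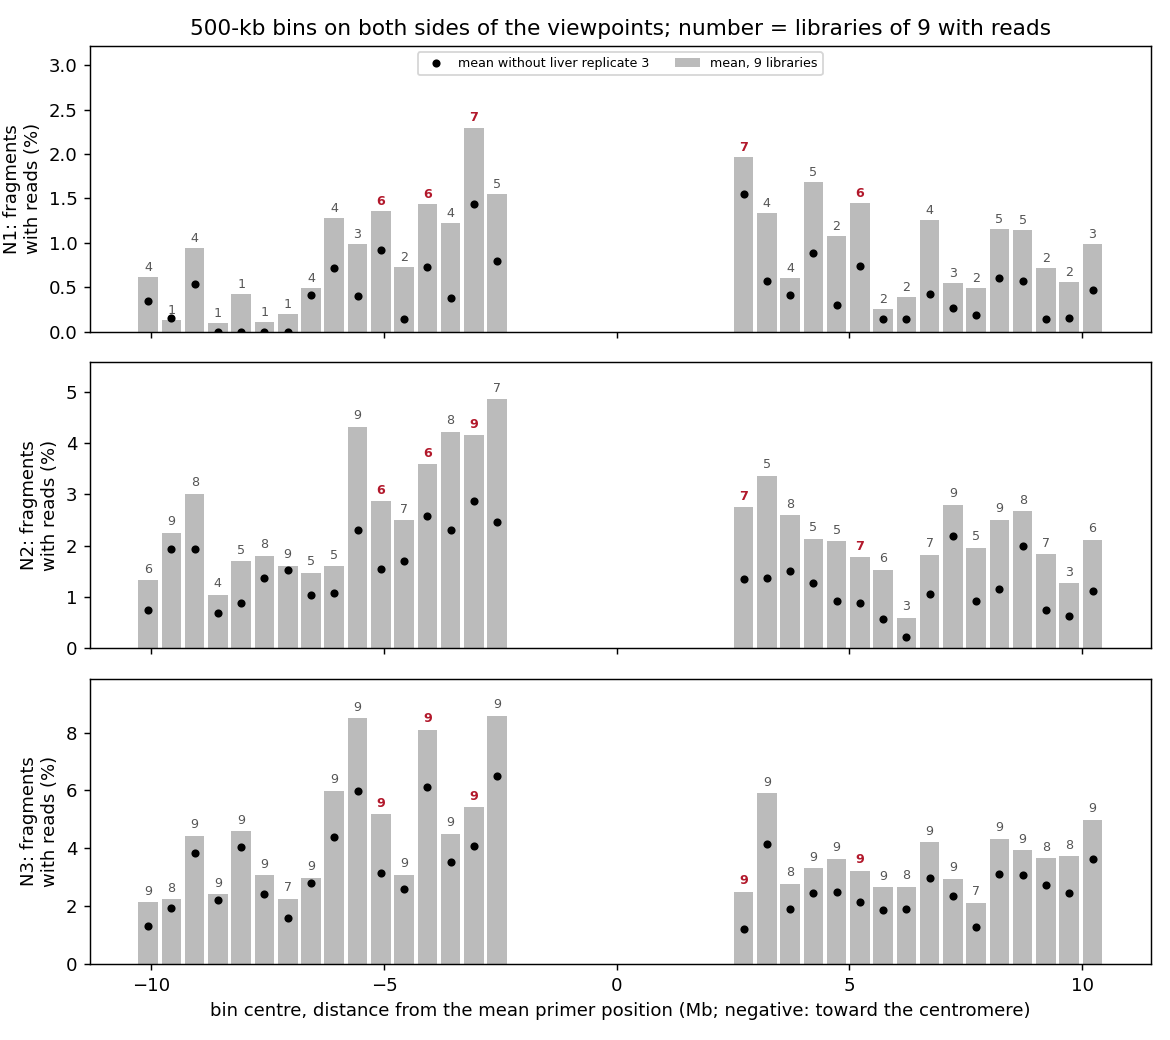
Mean percentage of a bin's fragments with reads for the 32 bins of 500 kb, by distance of the bin centre from the mean primer position in Mb (negative toward the centromere), for N1, N2 and N3. Bars are means of 9 libraries, dots are means without liver replicate 3, numbers are libraries with reads and red marks the 5 bins recurrent from all viewpoints; N2 and N3 bars rise toward the viewpoints on the centromeric side, and the highest N1 bar is 2.30% at 38050000, or 1.55% at 43844316 without liver replicate 3.

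The most recurrent was chr5:38050000-38549999, with reads in 25 of the 27 libraries. It holds *Slc2a9* (a urate transporter), *Stx18* (a syntaxin of the endoplasmic reticulum) and *Wdr1* (a cofactor of actin disassembly). From N1 it had 4, 24 and 28 reads in forelimb, 0, 0 and 44 in hindlimb and 6, 76 and 52 in liver replicates 1 to 3. From N2 it had 62, 66 and 24 reads in forelimb, 58, 12 and 61 in hindlimb and 100, 2 and 140 in liver. From N3 it had 70, 20 and 144 reads in forelimb, 9, 45 and 77 in hindlimb and 148, 210 and 178 in liver. Limb and liver libraries overlapped from N1 and N2, and from N3 once scaled to depth, where limb reached 101 RPM (reads per 1000000 library reads) and liver began at 74.9 RPM. It was also the bin covered most from N1, with 2.30 ± 2.76% (SD, n = 9) of its 174 fragments. With liver replicate 3 left out it had 1.44%, below the 1.55% of the bin at 43844316.

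On the telomeric side, chr5:43844316-44344315 holds *Prom1* (a membrane glycoprotein known as CD133), *Tapt1* and *Cd38* (an enzyme that degrades NAD). From N1 it had 17, 6 and 2 reads in forelimb, 0, 24 and 28 in hindlimb and 30, 0 and 40 in liver. From N2 it had 17, 25 and 5 in forelimb, 0, 1 and 0 in hindlimb and 100, 5 and 200 in liver. From N3 it had 2, 30 and 2 in forelimb, 2, 2 and 59 in hindlimb and 5, 1 and 210 in liver. This bin is the nearest on its side. From N2 the hindlimb libraries (0 to 1 reads) lay below those of forelimb and liver (at least 5), and from N1 and N3 the tissues overlapped. The N2 difference between forelimb and hindlimb did not pass the threshold over all bins (edgeR adjusted p = 0.406).

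The bin chr5:46344316-46844315 overlaps no protein-coding gene. It had reads in 6 N1, 7 N2 and 9 N3 libraries, at most 54, 62 and 93 per library, and all of these highest values came from liver replicate 3. The bin chr5:36050000-36549999 holds *Sorcs2* (a receptor of the sortilin family), *Tbc1d14* (a regulator of autophagy) and *Tada2b* (a subunit of a histone acetyltransferase complex). From N1 it had 0, 11 and 3 reads in forelimb, 0, 0 and 2 in hindlimb and 60, 38 and 58 in liver, so that all 3 liver libraries lay above all 6 limb libraries. The edgeR test of this bin is given below. The bin chr5:37050000-37549999 holds *Stk32b* (a kinase), *Gm1043* and *Jakmip1*, together with *Evc* and *Evc2*. From N1 it had 52, 34 and 0 reads in forelimb, 46, 22 and 40 in hindlimb and 0, 0 and 69 in liver. Thus 5 of 6 limb libraries but only liver replicate 3 had N1 reads. The N2 counts leaned the other way, with 158, 0 and 82 in forelimb, 10, 0 and 0 in hindlimb and 195, 6 and 196 in liver. From N3 limb (21 to 443 reads) and liver (137 to 439) overlapped. The edgeR log2 difference of limb to liver was 0.13 ± 2.01 (SE) from N1 and -3.02 ± 1.16 from N2 (edgeR adjusted p = 0.431 from N2).

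Recurrence from all viewpoints was sensitive to how it was counted. Without liver replicate 3 and with at least 6 of 8 libraries, 2 of the 5 bins remained, those at 38050000 and 43844316. Over neighbouring fragments of equal count only the bin at 38050000 remained, with 7, 9 and 9 libraries from N1, N2 and N3. With at least 8 of 9 libraries, or with at least 2 fragments that are not neighbours in each library, none remained.

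**Figure D4:**
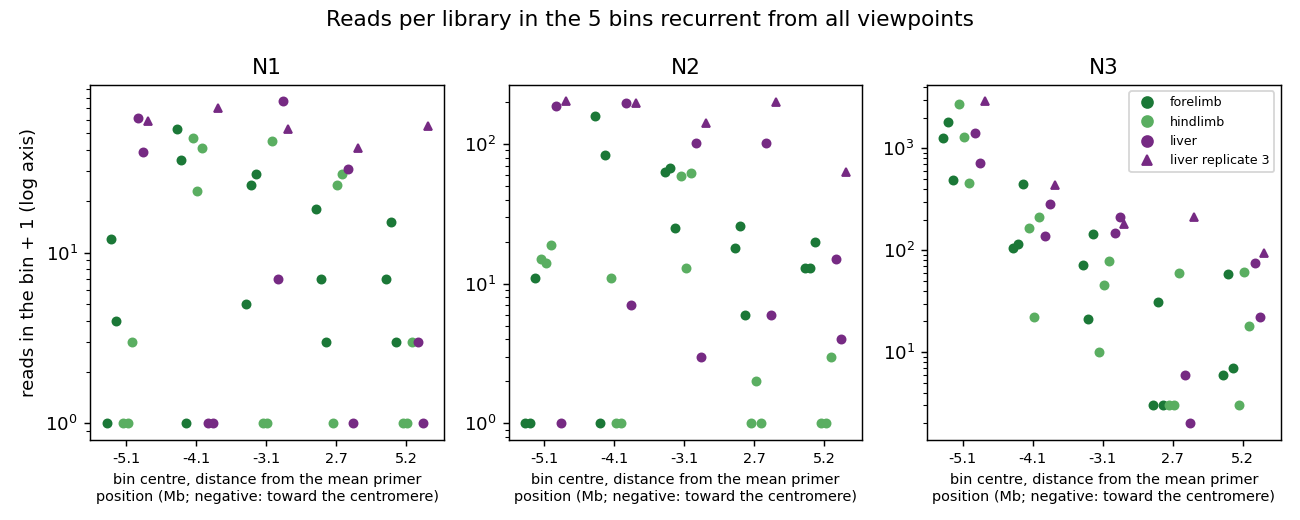
Reads plus 1 in each library (log axis) in the 5 bins with reads in at least 6 of 9 libraries from N1, N2 and N3, placed by distance of the bin centre from the mean primer position in Mb (negative toward the centromere). Points are libraries coloured by tissue and the triangle is liver replicate 3; libraries of limb and liver mix in most bins, and in the bin at 36050000 the N1 liver libraries (38 to 60 reads) lie above the limb libraries (0 to 11 reads).

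Other bins stood out for single viewpoints. From N2, chr5:35550000-36049999 with *Sorcs2* and *Afap1* (an actin filament-associated protein) had reads in 9 of 9 libraries, from 11 to 337 (median 39), on a mean of 4.32% of its fragments (2.31% without liver replicate 3). The bin chr5:48344316-48844315, with *Kcnip4* (a potassium channel subunit) and *5730480H06Rik*, had 2 to 50 N2 reads (median 7) in 9 of 9 libraries. From N3 the highest coverage was at chr5:38550000-39049999, with *Clnk* (an adaptor of immune cells), *Wdr1* and *Zfp518b*, where 8.58 ± 6.49% (SD, n = 9) of fragments had reads, followed by the bins at 35550000 (8.49%) and 37050000 (8.10%). Leaving out liver replicate 3, these were 6.49, 5.97 and 6.13%.

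The emptiest bins lay on both sides. From N1, chr5:32550000-33049999, with *Depdc5* (a brake on mTORC1 signalling), *Gm20671* and *Yes1* (a kinase), and chr5:33550000-34049999, with *Poln* (a DNA polymerase), *Nsd2* (a histone methyltransferase) and *Letm1* (a mitochondrial ion transporter), had reads in 1 library each. From N2, chr5:47344316-47844315 and chr5:50844316-51344315, in which no protein-coding gene lies, had reads in 3 libraries each. From N3, chr5:34050000-34549999, with *Poln*, *Fam193a* and *Zfyve28*, and chr5:48844316-49344315, within *Kcnip4*, had reads in 7 libraries each.

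Over the 32 bins the mean percentage of fragments with reads followed a like order from all viewpoints, with Spearman's rho of 0.60 between N1 and N2, 0.62 between N1 and N3 and 0.56 between N2 and N3. Without liver replicate 3 these were 0.43, 0.41 and 0.47. The bins share their libraries and their sequence composition, and rho with GC content was 0.22 (N1), 0.38 (N2) and 0.42 (N3), so these values only describe the bins.

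Limb and liver were compared to ask whether the distant contacts depend on the tissue. No bin of the members passed the threshold in any of the 6 comparisons (edgeR quasi-likelihood test on all bins of the genome, Benjamini-Hochberg adjusted p under 0.05). Limb against liver had 10 member bins among 86 tested from N1 (0% of all bins called), 27 among 2105 from N2 (0.0475%) and 32 among 4469 from N3 (0%). Forelimb against hindlimb called the same shares of all bins, 0, 0.0475 and 0%. At an unadjusted p under 0.05, limb against liver had 0, 11 and 3 member bins from N1, N2 and N3, and forelimb against hindlimb 1, 6 and 0. Over all bins, limb against liver had 6 from N1 (6.98%), 190 from N2 (9.03%) and 222 from N3 (4.97%) at that p, and forelimb against hindlimb 16 (18.6%), 239 (11.4%) and 278 (6.22%). DESeq2 called 2 member bins in limb against liver from N2 and 0 in the other 5 comparisons. Over all bins it called 0 from N1, 12 from N2 (0.57%) and 2 from N3 (0.0448%) in limb against liver, and 0, 14 (0.665%) and 60 (1.34%) in forelimb against hindlimb.

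From N2, 26 of the 27 member bins tested were lower in limb than in liver, with a median log2 difference of -2.80 against -0.41 over all bins. Without liver replicate 3 they were lower in 22 of 28, with -1.31 against -0.30. From N1, 1 of 10 member bins tested was higher in limb (median log2 difference -1.59 against -0.59 over all bins). From N3, 10 of 32 were higher in limb (-0.50 against -0.04). The bins of a viewpoint share the same libraries, so these counts only describe them. The share of all bins that were lower in limb is not given here. The bin with the smallest p from N2 was chr5:50844316-51344315, which had 0 reads in all 6 limb libraries and 70, 76 and 28 in liver (unadjusted p = 9.84e-05, edgeR adjusted p = 0.0990). Its fitted log2 difference rests on an added prior count, so no fold is given. From N1 the smallest p was that of the bin at 36050000 with *Sorcs2* (log2 difference -4.29 ± 2.29, SE, edgeR adjusted p = 0.472). From N3 it was chr5:45344316-45844315, with *Lcorl* (a gene linked to body size), *Fam184b* and *Ncapg* (a condensin subunit), which had 27, 38 and 18 reads in forelimb, 16, 2 and 7 in hindlimb and 159, 176 and 59 in liver (-2.99 ± 1.08, edgeR adjusted p = 0.955). At 36050000 the N1 liver libraries also lay above all limb libraries when scaled to depth, at 3147 RPM or more against at most 984 RPM. At 45344316 the N3 groups overlapped once scaled, with limb up to 26.4 RPM and liver from 24.8 RPM. Neither difference passed over all bins.

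Between forelimb and hindlimb, the smallest p from N1 was again at 45344316, where a single hindlimb library held 108 reads and the other limb libraries 0 to 2 (edgeR adjusted p = 0.230). From N2 it was chr5:37550000-38049999 with *Stk32b*, *Stx18* and *Cytl1*, where the forelimb libraries had 2, 45 and 0 reads and the hindlimb libraries 16, 36 and 219 (log2 difference -3.90 ± 1.29, SE, edgeR adjusted p = 0.392). From N3 it was the bin at 33550000 with *Nsd2* (-1.54 ± 0.76, edgeR adjusted p = 0.781). In each of these bins, forelimb and hindlimb libraries overlapped in reads from the viewpoint that gave the smallest p. From N3 they did not overlap at 45344316, with 18 to 38 reads in forelimb and 2 to 16 in hindlimb. That difference did not pass the threshold (log2 difference 1.27 ± 1.32, SE, edgeR adjusted p = 0.908).

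The members as a whole also did not separate limb from liver past the threshold. From N2 they held 0.0965 to 0.298% of library reads in the 6 limb libraries (median 0.182) and 0.167, 0.402 and 1.35% in the 3 liver libraries. The log2 difference was -1.34 ± 0.90 (SE; exact permutation test over 84 arrangements, p = 0.0595, adjusted p = 0.268 over 9 tests). As a share of fragments with reads, the N2 difference was -0.79 ± 0.52 (exact p = 0.0238, adjusted p = 0.214). From N1 the differences were -0.69 ± 0.72 in reads and -0.68 ± 0.62 in fragments (exact adjusted p = 0.352 and 0.321), and from N3 0.13 ± 0.11 and -0.38 ± 0.34 (exact adjusted p = 0.536 and 0.286). With liver replicate 3 left out, the N2 differences were -0.55 in reads (exact adjusted p = 0.827) and -0.28 in fragments, those from N1 -0.07 and -0.09, and that in N3 fragments -0.04. The smallest p that 6 against 3 libraries allow is 0.0119. The balance of the sides did not differ between limb and liver past the threshold either, with log2 differences of 1.18 ± 0.76 (N1), -0.70 ± 0.53 (N2) and -0.18 ± 0.51 (N3), each with SE, and exact adjusted p from 0.321 to 0.643.

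A few single fragments carried most of the N3 reads on members. From N3, 14 members (0.252% of them, against 0.195% of all fragments of the genome) had reads in all 9 libraries, with 10 on the centromeric and 4 on the telomeric side. They held 127540 reads, which was 75.1 to 94.2% of the member reads in each library. From N2, 2 members did so (0.036%, against 0.0524%), with a median of 20.4% of the member reads of a library, and from N1 none (0.00168% of the genome). The members' shares lay near those of the genome.

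Among them, chr5:35144936-35149433, in no annotated gene, had 1967, 2892 and 3630 N3 reads in forelimb, 4261, 1069 and 3686 in hindlimb and 4497, 4721 and 4786 in liver. The 3 liver counts lay above the 6 limb counts before scaling to depth, and N1 and N2 had 0 reads there. Scaled to library reads, its means were 1962 RPM in limb and 2178 RPM in liver. The fragment chr5:38927867-38930231, in no gene, had 1703, 2613 and 1691 N3 reads in forelimb, 2626, 248 and 108 in hindlimb and 612, 782 and 303 in liver, so that tissues overlapped. Of the others, 11 had 4 to 2519 N3 reads per library. They lie in *Slc30a3* (a zinc transporter), in *Tmem129* and *Tacc3*, in *Sorcs2*, in *Slit2* (an axon guidance ligand) and in *Kcnip4*, or in no gene.

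**Figure D5:**
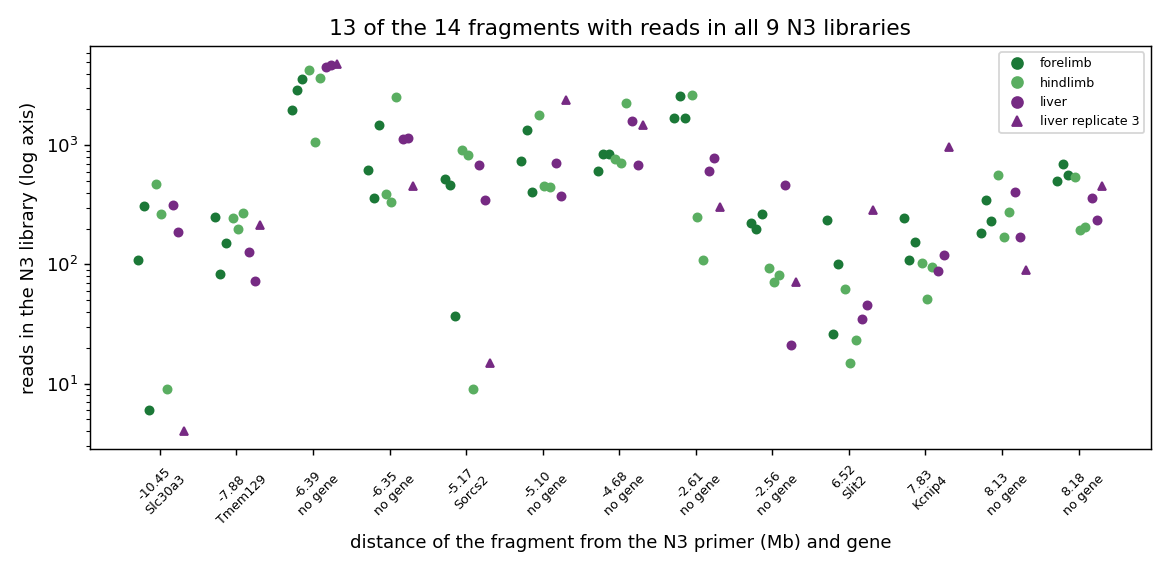
N3 reads per library (log axis) on 13 of the 14 member fragments with reads in all 9 N3 libraries, ordered by distance from the N3 primer in Mb (negative toward the centromere) with the overlapping gene. Points are libraries coloured by tissue and the triangle is liver replicate 3; the fragment at -6.39 Mb spans 1069 to 4261 reads in limb and 4497 to 4786 in liver.

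Unlike most fragments with reads from N1, these 14 had no neighbour of equal count in any library, and their neighbours held 183 reads in all against their own 127540. Among all N3 members with reads, 24.8 to 71.6% per library had such a neighbour, against medians of 66.7% from N2 and 96.0% from N1. From the other viewpoints 7 of the 14 had reads, 12 reads in all.

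The N3 primer was compared with the sequence of these fragments, since they were read from this viewpoint. In the 24 bases of the primer, the fragments at 35144936 and 36429596 each contain its last 14 bases exactly. They are the only members of the 5560 to hold as many, and both were read in all 9 N3 libraries. At least the last 8 bases were found in 10 of the 14 fragments (71.4%), on either strand, against 18.4% of all members, 15.4% of the members without N3 reads and 48.2% of the 886 members at least as long as the median of the 14 (5282.5 bp). The matches are printed for the 2 fragments with 14 bases, with bases equal to the primer in capitals, 5′ to 3′ on the strand given, at chr5:35147790-35147813 (+) and chr5:36429870-36429893 (−), after the primer itself with its last 8 bases in capitals. A match is a description of sequence. Whether it gave rise to the reads was not tested.
N3 primer: gttgtaagtagcagacACAGAGAT
35144936: acaGacAtatGCAGACACAGAGAT
36429596: tgaGatAaagGCAGACACAGAGAT

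From N2 the highest mean share was at chr5:31817280-31839289 in *Babam2* (a subunit of a DNA repair complex), with 293, 190 and 64 reads in forelimb, 168, 47 and 47 in hindlimb and 148, 141 and 161 in liver. N1 and N3 had 0 reads there. The other N2 fragment in all 9 libraries, chr5:48675794-48693560 in *Kcnip4*, had 2 to 12 N2 reads per library. With 2 N3 libraries it was seen in 11 of the 27, the most of any member, alongside chr5:37334621-37337380. The latter spans the start of *Evc* and was seen in 5 N2 and 6 N3 libraries. Its N3 reads were 1, 0 and 176 in forelimb, 0, 0 and 87 in hindlimb and 1, 4 and 31 in liver. From N1 the highest mean share was at chr5:45563434-45566539 in *Fam184b*, with 53 reads in hindlimb replicate 3, 1 in liver replicate 3 and 0 elsewhere, so that this value rests on 1 library.

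Reads from at least 2 libraries of each viewpoint were found on 3 members. The first, chr5:38787848-38792707 in *Clnk*, had reads in 2 N1, 3 N2 and 2 N3 libraries. The other pair are neighbours in *Adgra3* (an adhesion G protein-coupled receptor), chr5:49959566-49969330 and chr5:49969331-49970009, which share a *BglII* site and had the same count in each library. From N1 they had 1 read in forelimb replicate 3, 31 in hindlimb replicate 3 and 2 in liver replicate 3. From N2 they had 1 read in forelimb replicate 1 and 13 in liver replicate 1, and from N3 1 in forelimb replicate 2, 4 in liver replicate 1 and 16 in liver replicate 3. The pair thus had reads in 3 N1, 2 N2 and 3 N3 libraries. The share of all fragments of the genome with reads in at least 2 libraries of each viewpoint is not given here. The shared site of the pair is shown as 1 example of such a position. It lies at chr5:49969293-49969372 on the + strand of mm10, outside exons, with the *BglII* site in capitals.
*Adgra3* site: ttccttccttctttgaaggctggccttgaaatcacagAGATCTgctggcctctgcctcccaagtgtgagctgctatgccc

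Gene starts were examined for skeletal and hepatic genes, as reads within 25 kb of the annotated start. Over all 130 protein-coding starts in the intervals, the median start had reads in 11.1% of the limb and 33.3% of the liver libraries. The 10 genes of a skeleton and growth list had medians of 19.4 and 44.4%, and the 7 of a liver metabolism list 16.7 and 44.4%. These lists are described only, and with a window of 50 kb the medians were 30.6 and 61.1% for the former and 38.9 and 55.6% for the latter. *Evc* and *Evc2* gave the same values within 25 kb, so 1 window counts as 2 genes in the skeletal medians. All liver medians include liver replicate 3. Without it, skeletal starts had reads within 25 kb in 0 (*Nsd2*) to 4 (*Evc*) liver libraries. Starts of the liver list had them in 0 (*Ppargc1a*) to 3 (*Hgfac*).

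Among the skeletal genes, *Evc* and *Evc2*, which share a promoter region and act in Hedgehog signalling at the cilium of cartilage cells, had reads in 9 of 18 limb and 6 of 9 liver libraries, the most of the list. From N3 their shared window had 23, 30 and 352 reads in forelimb, 112, 0 and 174 in hindlimb and 2, 62 and 133 in liver, so that limb and liver overlapped. *Fgfr3*, a receptor that restrains growth of the growth plate, had reads in 5 limb and 5 liver libraries. *Msx1*, a homeobox gene of limb and craniofacial development, had reads in 4 and 5. *Lcorl* had reads in 5 and 2, *Nsd2* in 3 and 1, *Sh3bp2* (an adaptor of immune and bone cells) in 2 and 2, *Cytl1* (a cytokine of cartilage) in 1 and 3 and *Ncapg* in 1 and 3. *Slit2* had reads in 0 of 18 limb and 5 of 9 liver libraries, of which 3 were those of liver replicate 3.

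Among the liver genes, *Acox3*, which acts in peroxisomal fatty acid oxidation, had reads in 7 limb and 4 liver libraries, with up to 452 in forelimb replicate 1 from N3. *Slc2a9* had reads in 6 and 4, *Qdpr* (an enzyme that recycles tetrahydrobiopterin) in 4 and 5, *Hgfac* (a protease that activates hepatocyte growth factor) in 3 and 4, *Lap3* (an aminopeptidase) in 2 and 5 and *Gckr* (the regulator of glucokinase) in 0 and 3. *Ppargc1a*, a coactivator of mitochondrial and gluconeogenic genes, had reads in 3 limb and 0 liver libraries, each limb value between 2 and 23 reads. Liver replicate 3 supplied 1 to 3 of the liver libraries for each of these genes with liver reads.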

How the data were processed

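The 27 4C-Seq libraries were grouped by tissue, viewpoint and replicate as the titles give them. Adapters were cut by the authors with cutadapt 1.10 and alignment was to mm10 with BWA 0.7.10-r789. Alignments in the ENCODE blacklist or under a MAPQ of 30 were dropped, and the deposited counts are reads per *BglII* fragment, not normalized. GATK 3.4-0 is listed in the submitters' processing notes with no role. A deposited column of reads per kb was not used. Counts were assigned to members and 500-kb bins by fragment midpoint, and 0.5 was added before taking log2. All 51861 *BglII* sites of chromosome 5 in RefSeq GRCm38.p6 coincide with fragment ends, so its sequence and the GENCODE vM21 genes were used.

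Ratios were tested over libraries or templates with exact sign-flip or permutation tests, two-sided, with Benjamini-Hochberg adjustment over each family. Bin counts went into edgeR 4.0.16 with TMM scaling after filterByExpr (quasi-likelihood test, threshold 0.05, fragments within 20 kb of the library's own primer left out) and DESeq2 1.42.0 in R 4.3.3. Other values used Python 3.11.15, numpy 2.4.6, pandas 2.3.3 and scipy 1.17.1. The tests were tested on simulated data. Nothing says that the pools of a tissue differ in anything but their embryos, and p-values measure the spread between these pools. Alternatives were the pseudocount, capped counts, neighbours counted once, the denominator and libraries thinned to the smallest. They also covered bin and window sizes, filters, scaling, DESeq2, the replicate number as a block and each replicate left out. Bins named were those recurrent from all viewpoints, the 3 with reads in most and the 2 in fewest libraries per viewpoint, and the smallest p per test. Fragments named by rule were the 5 seen in most libraries and the highest mean share per viewpoint. Those seen in all 9 libraries, or in 2 or more from each viewpoint, were added after their values were seen. The values of 1 fragment named by rule are not reported here. The members, gene lists and tests were chosen with earlier results of these data known.

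Replicate numbers were checked for pairing of tissues. Correlations of deviations from group means ran from -0.121 to 0.214 over bins and most were below 0.1. Those of replicate 3 were the highest from N2 (0.0979 to 0.214) and from N3 (0.0764 to 0.127), and the cause was not tested. As the values were low, numbers were not taken to pair tissues in the main tests. Results with the number as a block are given in the last part.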

Additional observations from a re-analysis of the deposited data

Results flagged for a closer look

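The balance of the sides differed between viewpoints within the 9 templates, by a test of the difference itself added after seeing the data. The log2 ratio of telomeric to centromeric reads was higher from N1 than from N2 by 1.61 ± 1.43 (SD, 7 of 9 templates, exact sign-flip permutation test, adjusted p = 0.0234 over 6 tests), higher from N1 than from N3 by 2.92 (9 of 9 templates, exact adjusted p = 0.0117) and higher from N2 than from N3 by 1.31 ± 0.57 (9 of 9, exact adjusted p = 0.0117). In fragments with reads, N1 exceeded N2 by 0.731 ± 0.67 (8 of 9, exact adjusted p = 0.0234) and N3 by 0.568 ± 0.67 (8 of 9, exact adjusted p = 0.0234). None of these passed the threshold over neighbouring fragments of equal count or without the fragments in all 9 libraries, and the N2 to N3 difference in reads then turned (values in the next part).

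Liver replicate 3 lay far from the other 8 templates in the share of library reads on members from N2 relative to N3. Its log2 difference was 0.60, the next highest was -1.18, and the gap took up 0.509 of the range of the 9 templates (critical value 0.493). Of 21 sets examined, each of 6 limb libraries or of 9 libraries or templates, this was the only 1 to pass. Chance alone passes about 1 in 20.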

How the results depend on the processing

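Of 527 alternatives, 479 kept the direction and the side of the threshold or stayed within the spread, 20 lost the call, 17 moved a value or count and 11 turned a direction. The cause was not tested for any of them. Of 264 that left out a replicate, 259 kept the direction and the side of the threshold, or a like count. Their values could still move: without liver replicate 3 the N2 limb to liver difference in reads went from -1.34 to -0.55. The recurrence counts without liver replicate 3, given below, are not among the 264. With the replicate number as a block, 3 blocks cannot go below p = 0.25, and the side ratios kept their values with an exact adjusted p of 0.375 (reads -1.88 from N2 and -3.19 from N3, fragments -0.58 and -0.41). The block called 0 member bins in edgeR. Over neighbouring fragments of equal count the side ratios lost their calls (reads -1.26 and -1.01, fragments -0.58 and -0.33 from N2 and N3). Leaving out a replicate, the side ratio of N1 fragments ran from -0.0355 to 0.349 and turned without forelimb replicate 3, and the limb to liver difference of the N3 side ratio ran from -0.63 to 0.21 and turned without liver replicate 3. That difference was 0.00292 with equal neighbours taken once. The N3 limb to liver difference in share of reads turned to -0.10 with counts capped at the 99th percentile, -0.79 without the fragments in all 9 libraries and -0.996 over equal neighbours. Between viewpoints, the N2 minus N3 share of reads turned to 0.85 without the fragments in all 9 libraries and 0.81 over equal neighbours, and lost its call with capped counts (-0.83) and with chromosome 5 beyond 2 Mb as denominator (-0.35). The N1 minus N3 share lost its call with that denominator (0.31), and N1 minus N2 over equal neighbours (0.58). The side ratio between viewpoints lost its calls over equal neighbours (reads 1.02 for N1 minus N2, 0.77 for N1 minus N3 and, turned, -0.25 for N2 minus N3, fragments 0.75 and 0.49) and without the fragments in all 9 libraries (1.34, 0.74 and, turned, -0.60, fragments 0.76 and 0.50). The telomeric N2 ratio of nearest to farthest turned to -0.0219 without liver replicate 3. Recurrent bins from N1, N2 and all viewpoints numbered 0, 11 and 0 with at least 8 of 9 libraries, 0, 5 and 0 with at least 2 fragments that are not neighbours, and 3, 7 and 1 over equal neighbours (N3 19). Without liver replicate 3 they numbered 2 from N1 and 2 from all viewpoints. With 1-Mb bins there were 16 from N3, out of 16. The limb median of the liver list was 38.9% with windows of 50 kb. Member bins called numbered 2 with DESeq2 (limb against liver, N2). Leaving out a replicate gave 0 to 1 for both N2 comparisons, 1 without hindlimb replicate 3 (limb against liver) and 1 without forelimb replicate 2 (forelimb against hindlimb). A test of fragments with reads per bin could not be fitted for N1 and held no member bin for N2. Depth limits N1 most, where 10 of 32 member bins had enough reads to be tested.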
